A study of Mus musculus with 6 samples.

Results

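The interleukin-17 and interleukin-23 axis was followed through 8 genes in RNA from whole lungs of C57BL/6 mice. The 8 were taken by symbol from the mRNA count table, which lists 17973 genes. They are the cytokine genes Il17a and Il23a, the receptor genes Il17ra, Il17rc and Il23r, the chemokine gene Ccl20 with its receptor gene Ccr6, and Nfkbiz, a transcriptional co-activator of the IL-17 response. All 8 were in the table, and 7 of them passed the filter on low counts; Il17a did not. Silicosis is a fibrotic disease caused by breathing in silica dust. In 1 group it was modelled by a single instillation into the trachea, with a dose of 8 mg silica and a volume of 40 µL saline. The series text names sterile saline for the comparison samples, and the labels call them control. Lungs were frozen after 90 days. The 3 libraries from controls carry the names C7, C8 and C9, and the 3 from silicosis N129, N136 and N138. The labels give strain, tissue and treatment, but neither the age of the mice nor whether each library came from a separate animal, so p-values here reflect the variation among these libraries, which may be partly technical.

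The axis links phagocytes to lymphocytes and on to the epithelium. Macrophages and dendritic cells make IL-23, a pair of chains encoded by Il23a and Il12b, and its receptor, encoded by Il23r and Il12rb1, signals through Jak2 and Tyk2 to Stat3 in type 17 lymphocytes. These cells, which include Th17 cells, some gamma-delta T cells and innate lymphoid cells, secrete IL-17A. The receptor chains encoded by Il17ra and Il17rc receive it on epithelial cells and fibroblasts, which respond with neutrophil chemoattractants, antimicrobial proteins and Ccl20. CCL20 in turn draws in cells that carry CCR6, among them type 17 lymphocytes and B cells.

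The mRNA libraries held between 33698920 and 44000748 counts. Values below are CPM, counts per 1000000 after scaling each library by its TMM factor, and fold changes are silicosis over control on the log2 scale with their standard error (SE). A gene was called when the adjusted p of edgeR's quasi-likelihood test over all 15808 tested mRNAs was under 0.05. Lung identity genes were present in both groups, and 0 of the 10 checked was at 0 in either group. Of these 10, 1 rose, 3 fell and 6 did not pass. The falls were Scgb1a1, of club cells, by 1.18 (SE 0.27), Ager, of alveolar type 1 cells, by 1.05 (SE 0.15), and Pecam1, of endothelium, by 0.71 (SE 0.12), and the rise was the collagen gene Col1a1, by 1.02 (SE 0.17). On the first principal component, with 65.2% of variance, all controls lay on one side and all silicosis libraries on the other; on the second, with 11.6%, C9 and N138 had the opposite sign to the other 4 libraries. N129 was the highest of the 6 libraries for 4 of the 7 tested members and for Il17a, while it was the highest for 14.1% of all tested mRNAs and 26.8% of those called higher.

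Of the 7 tested members, 4 were higher in silicosis, 0 were lower and 3 did not pass. Ccr6, Ccl20, Nfkbiz and Il17rc rose; Il23a and Il23r had higher values that missed the threshold, and Il17ra differed least. The background of calls was 31.8% of the 15808 mRNAs, made up of 15.3% higher and 16.5% lower. The median log2 fold change was 1.03 over the 7 tested members and 0.02 over all tested mRNAs. Il23a and Ccl20 each reached the filter's level of 0.247 CPM in all 3 silicosis libraries but in 1 control library, so they entered the test through the group in which they were high. In 6 of the 7 tested members, Il23a and Ccl20 among them, every silicosis library lay above every control library, and Il17ra was the exception. The background of such separation over all tested mRNAs was 23.7% higher and 24.0% lower, 47.7% together. Il17a, which is outside this background, was also above its controls, which were all at 0. The count of 4 called members became 2 without C7 and 2 without C8, 3 without any other library and 6 with library totals alone. It was 5 with DESeq2, but these included Il17a, which is not among the 7 tested members. DESeq2 also called Il23r and gave neither a p nor an adjusted p for Ccl20, which therefore could not be called. Scaling by library totals alone moved the median of all tested mRNAs by 0.10 on the log2 scale, and the share of calls that were higher went from 48.2% to 63.98%; each change below is relative to the TMM scale.

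**Figure D1:**
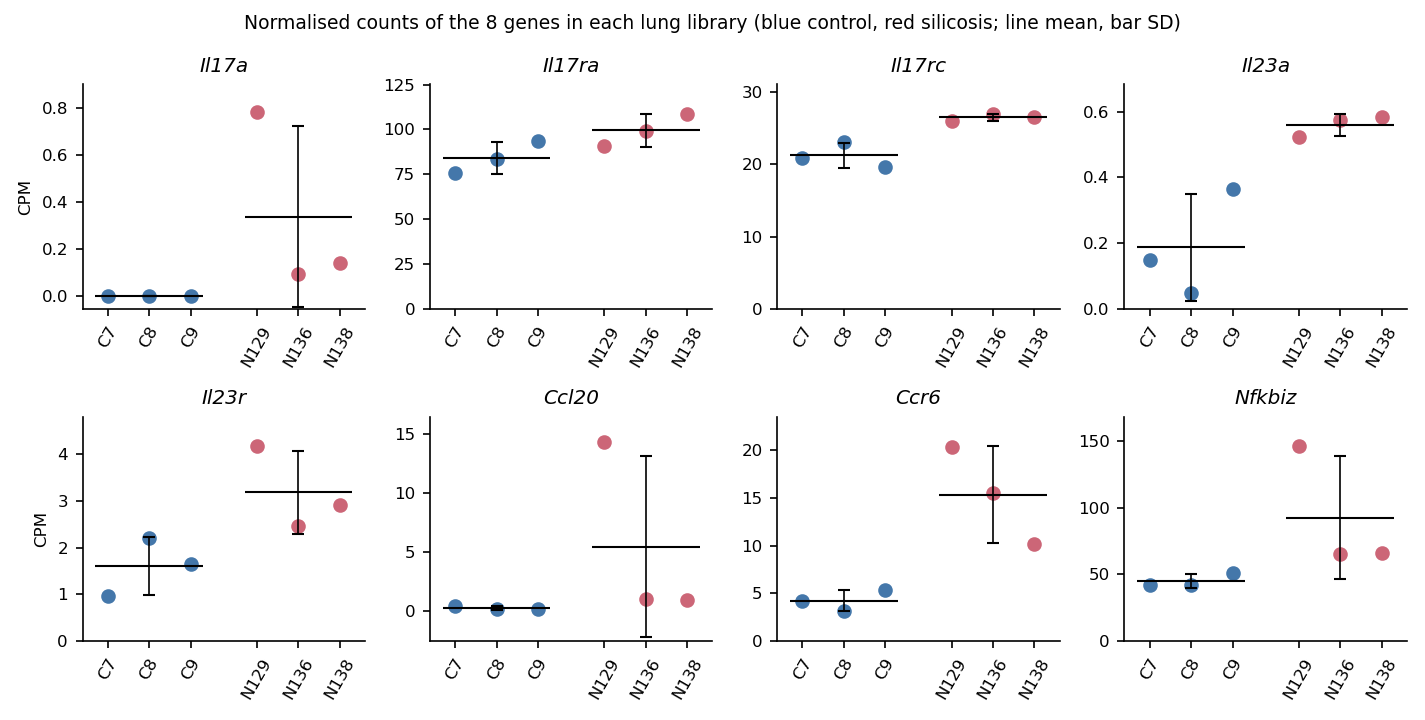
Normalised counts (CPM, linear axis) of the 8 genes in each of the 3 control (blue) and 3 silicosis (red) libraries, with the group mean as a line and the SD as a bar. Silicosis points lie above control points for all genes but Il17ra, and the points of Il17a, Ccl20 and Nfkbiz in N129 (0.782, 14.3 and 146 CPM) stand far above those of N136 and N138.

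Il17a, the signature cytokine of type 17 lymphocytes, was detected only in silicosis libraries. It had 0 counts in C7, 0 in C8 and 0 in C9, and 30 counts in N129, 4 in N136 and 5 in N138. A count of 0 allows up to 3 counts in a library, a limit that covers counting error only, and N136 and N138 lay just above it. Against this floor in each control library the silicosis mean was at least 4.51-fold higher. The bound was carried by N129, which alone was at least 10.5-fold higher, and it was 1.54 for N136 and N138 alone. Il17a failed the filter and so has no main test. Without the filter, edgeR gave an adjusted p of 0.0275, and the authors' deposited table lists an adjusted p of 0.00197; both fitted fold changes rest on a group at 0.

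Other interleukin-17 ligands were compared next. Il17f, the closest relative of Il17a, had 7, 9 and 2 counts in C7, C8 and C9, and 15, 3 and 0 in N129, N136 and N138. Its group totals were 18 and 18 counts, a ratio of 1.02 with a 95% exact counting interval of 0.501 to 2.08. Il17f was thus present in every control library, where Il17a had no count. Il17c, a ligand made by epithelial cells, had 32, 15 and 27 counts in C7, C8 and C9, and 122, 72 and 43 in N129, N136 and N138. It rose by 1.70 on the log2 scale (SE 0.47, edgeR adjusted p = 0.0229), a call that ended without C8, C9 or N129 (0.0790, 0.0562 and 0.1002). Il17d fell by 0.88 (SE 0.22, edgeR adjusted p = 0.0163), a call that ended without C8 or N129 (0.0641 and 0.0562). Il17b had 3 counts in each group, and Il25 was not analysed here.

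The receptor chains for IL-17A were the steadiest members. Il17ra, the chain shared by several receptors of the family, had 75.6, 83.8 and 93.3 CPM in C7, C8 and C9, and 90.7, 99.1 and 109 CPM in N129, N136 and N138. The groups overlapped, since C9 was above N129. Its log2 fold change was 0.24 (SE 0.11, edgeR adjusted p = 0.126), and scaling by library totals alone gave 0.35 with an adjusted p of 0.0407. Il17rc, the partner chain, had 20.9, 23.1 and 19.7 CPM in the control libraries and 26.0, 27.0 and 26.5 CPM in N129, N136 and N138. The silicosis libraries were nearly level and all above C8, the highest control. Il17rc rose by 0.32 (SE 0.11, edgeR adjusted p = 0.0490), just under the threshold. The call did not survive leaving out any of the 6 libraries, with adjusted p between 0.0639 and 0.138, with DESeq2 size factors (0.0522) and without the filter (0.0642).

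The number of Il17ra counts for each Il17rc count was 3.62, 3.63 and 4.74 in C7, C8 and C9, and 3.49, 3.67 and 4.10 in N129, N136 and N138. The groups overlapped (exact permutation p = 0.7, two-sided; adjusted over the 5 ratios that could be computed, 0.875). With 3 libraries against 3 this test cannot give a p below 0.1. Per kilobase of exon the 2 chains were also close. Control lungs had 9.73 ± 1.02 CPM per kb for Il17ra and 7.95 ± 0.653 for Il17rc (SD, n = 3), and silicotic lungs had 11.5 ± 1.04 and 9.92 ± 0.191.

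The remaining receptors of the family went the other way or differed little. Il17rd, which codes for a membrane protein also known as Sef, fell by 0.62 (SE 0.13, edgeR adjusted p = 0.00754), with a mean of 107 ± 14.3 CPM in controls and 69.8 ± 9.80 in silicosis (SD, n = 3). Il17re, which forms the receptor for IL-17C together with Il17ra, fell by 0.48 (SE 0.11, edgeR adjusted p = 0.0120), with 19.4 CPM in controls and 14.0 in silicosis, a call that ended without C8 (0.0576). Its ligand gene Il17c was therefore higher and its own transcript lower in the same libraries. Il17rb, the receptor for IL-25, had a log2 fold change of -0.06 (SE 0.24), which turned positive without C7 or N136 and with library totals alone. Of the 5 tested genes of this group, 1 rose, 3 fell and 1 did not pass; the rise was lost without C8, C9 or N129, and 1 fall was left without C8.

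**Figure D2:**
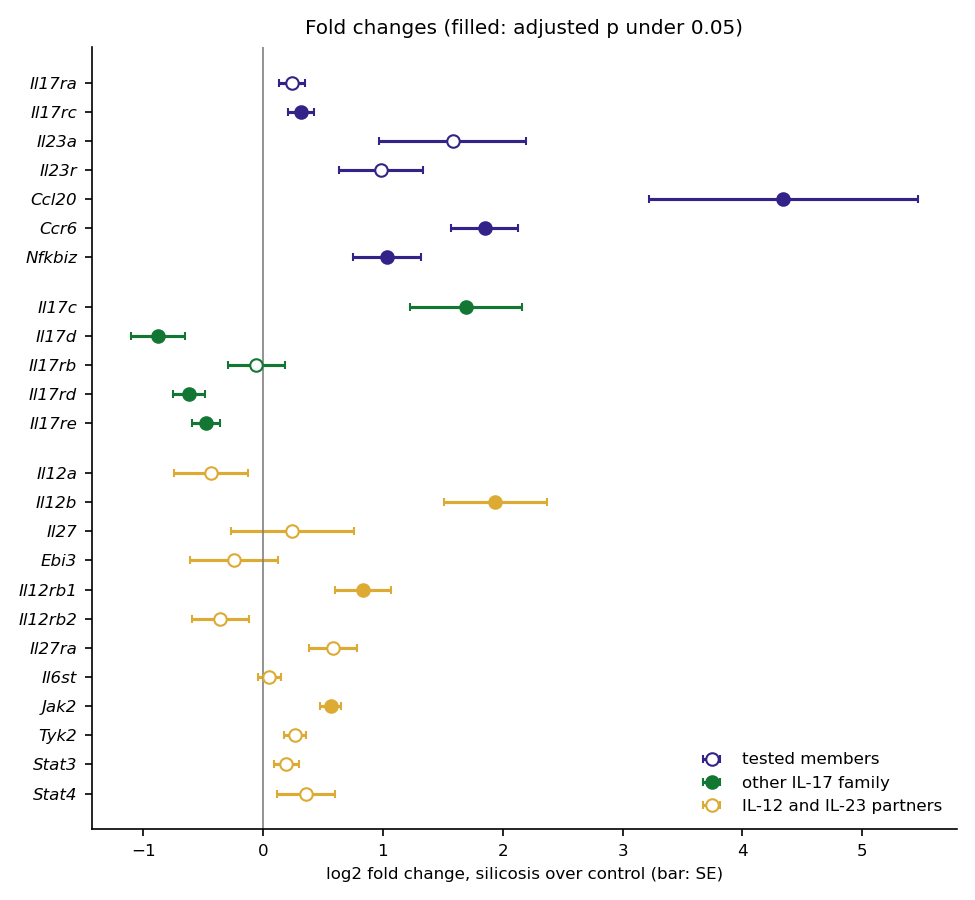
Log2 fold changes, silicosis over control, with SE bars for the 7 tested members, the 5 tested other ligands and receptors of the IL-17 family, and 12 partners of IL-12 and IL-23; filled points passed edgeR's adjusted p of 0.05. Ccl20 has the highest value (4.34) and the widest bar (1.12), and Il17d, Il17rd and Il17re are filled points below 0.

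On the interleukin-23 side, Il23a codes for the chain that is particular to IL-23. It had 6, 2 and 14 counts in C7, C8 and C9, and 20, 25 and 21 in N129, N136 and N138. The silicosis libraries were within a narrow span, 0.522 to 0.584 CPM, and all lay above C9, the highest control at 0.365 CPM. The ratio of the pooled counts was 3.06 with a 95% exact counting interval of 1.87 to 5.21. Between libraries the log2 fold change of 1.58 (SE 0.62) did not pass (edgeR adjusted p = 0.0806). It passed with limma-voom (0.0459) and without C9 (0.0317, with a log2 fold change of 2.48). C8 with 2 counts and C9 with 14 show the spread of the controls.

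Il12b, the chain that IL-23 shares with IL-12, rose. It had 34, 45 and 35 counts in C7, C8 and C9, and 124, 256 and 63 in N129, N136 and N138 (log2 fold change 1.94, SE 0.43, edgeR adjusted p = 0.00887). Il12a, the chain particular to IL-12, had 100, 65 and 100 counts in the controls and 75, 67 and 51 in silicosis, with a log2 fold change of -0.44 (SE 0.30, edgeR adjusted p = 0.307). Counts of Il12a for each count of Il23a were 16.7, 32.5 and 7.14 in C7, C8 and C9, but 3.75, 2.68 and 2.43 in N129, N136 and N138. The groups did not overlap, and the exact permutation p was 0.1, the smallest that this design allows (adjusted over the 5 ratios, 0.5). Il12b to Il23a ratios overlapped between groups (exact permutation p = 0.9; adjusted, 0.9).

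Il23r, the receptor chain particular to IL-23, had 39, 92 and 63 counts in C7, C8 and C9, and 160, 107 and 105 in N129, N136 and N138. N129 was the highest, and N136, at 2.45 CPM, was only a little above C8 at 2.20 CPM. The log2 fold change of 0.98 (SE 0.35) just missed the threshold (edgeR adjusted p = 0.0609). It passed with DESeq2 (0.0296), with library totals alone (0.0408) and without C8 (0.0493). The partner chain Il12rb1, which also serves IL-12, rose by 0.84 (SE 0.23, edgeR adjusted p = 0.0242), a call that ended without C7, C8 or N136 (0.0729, 0.0864 and 0.0699). Il12rb2, the chain particular to the IL-12 receptor, had a log2 fold change of -0.36 (SE 0.24, edgeR adjusted p = 0.281). GENCODE M21 places exons of Serbp1 on the opposite strand across 40.0% of the exon bases of Il12rb2, and no strand setting is given in the sources used here, so its counts are uncertain.

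Downstream of the IL-23 receptor, the kinase gene Jak2 rose by 0.56 (SE 0.08, edgeR adjusted p = 0.00136). Its mean was 123 ± 2.78 CPM in controls and 182 ± 10.3 in silicosis (SD, n = 3). Tyk2, the other receptor kinase, had a log2 fold change of 0.26 and did not pass (edgeR adjusted p = 0.0531). The transcription factor genes Stat3 and Stat4 had 0.19 and 0.36 and did not pass. GENCODE M21 places exons of Gm28177 on the same strand across 26.7% of the exon bases of Stat4, so its counts are uncertain. The related cytokine chains Il27 and Ebi3 and the receptor chains Il27ra and Il6st did not pass either. In all, 3 of 12 partner genes rose and 0 fell, and with library totals alone 6 rose. The median log2 fold change of the 12 was 0.25.

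Ccl20, the chemokine that IL-17 induces in airway epithelium, had the highest fold change of the members. It had 18, 8 and 6 counts in C7, C8 and C9, and 549, 46 and 35 in N129, N136 and N138. In CPM the controls were at 0.447, 0.191 and 0.157, and N129, N136 and N138 at 14.3, 1.06 and 0.974. Every silicosis library was thus above every control, but N129 was 14.7 times N138. The log2 fold change was 4.34 (SE 1.12, edgeR adjusted p = 0.0173), and without N129 it was 1.92 (0.0412). The call ended with limma-voom (0.116), without C8 (0.0635) and without C9 (0.0699), and the authors' deposited table lists a log2 fold change of 4.35 with no p for this gene.

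Ccr6, the receptor of CCL20, rose under every alternative run. It had 4.20, 3.16 and 5.40 CPM in C7, C8 and C9, and 20.3, 15.5 and 10.2 CPM in N129, N136 and N138. The lowest silicosis library was above the highest control. Ccr6 rose by 1.85 on the log2 scale (SE 0.28, edgeR adjusted p = 0.00142), or 3.61-fold. Its values lay between 1.59 without N129 and 2.07 without N138 among those that left out a library. The number of Ccr6 counts for each Ccl20 count ranged from 9.39 to 34.5 in the controls, and was 1.42, 14.7 and 10.5 in N129, N136 and N138 (exact permutation p = 0.3; adjusted, 0.75).

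The promoters of these 2 genes are shown because Ccl20 and Ccr6 had the highest fold changes of the called members. Sequences are from RefSeq on GRCm38.p6, an earlier build than the GRCm39 named by the submitters, and run from 250 bases before to 50 after a start site, 5′ to 3′ on the gene's strand. RefSeq promoters were found for 5 of the 8 members, 6 promoters in all, with 2 for Ccr6. Capitals mark matches, on either strand, to a loose kB-like motif, of the kind bound by NF-kB.
Ccl20, chr1:83116516-83116815, plus strand: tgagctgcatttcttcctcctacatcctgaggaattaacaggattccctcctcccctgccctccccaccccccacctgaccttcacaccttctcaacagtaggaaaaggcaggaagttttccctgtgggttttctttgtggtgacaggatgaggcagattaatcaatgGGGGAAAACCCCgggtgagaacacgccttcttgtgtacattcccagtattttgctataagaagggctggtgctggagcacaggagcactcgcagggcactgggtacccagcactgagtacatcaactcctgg
Ccr6, the downstream start site of the pair, chr17:8242276-8242575, plus strand: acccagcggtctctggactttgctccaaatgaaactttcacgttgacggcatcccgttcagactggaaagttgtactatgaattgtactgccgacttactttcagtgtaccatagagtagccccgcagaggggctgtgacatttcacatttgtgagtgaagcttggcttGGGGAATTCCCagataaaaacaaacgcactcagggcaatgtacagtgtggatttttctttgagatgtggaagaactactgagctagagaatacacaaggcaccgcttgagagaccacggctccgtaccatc

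In Ccl20 the capitals begin 82 bases before the start site and hold overlapping matches on both strands. The kB-like motif is loose, and 50.8% of all 32851 promoters of this length have a match. A narrower form of it was also matched in Ccl20 on the reverse strand, and 1.63% of promoters hold it. It was found in the promoters of Il23r and Il17rc as well. The Ccr6 promoter shown holds kB-like matches from 81 bases before its start site, and the other Ccr6 promoter, not shown, holds none. These are matches of letters and no measure of binding.

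Nfkbiz, whose product IkB-zeta joins NF-kB in the nucleus and is needed for a subset of IL-17-induced genes, had 42.4, 42.1 and 51.2 CPM in C7, C8 and C9, and 146, 65.3 and 66.3 CPM in N129, N136 and N138. N136 and N138 were close to each other and above all controls, and N129 was more than both. Nfkbiz rose by 1.03 (SE 0.28, edgeR adjusted p = 0.0228), and without N129 by 0.54 (0.0174). The call ended without C7 (0.0750) or C8 (0.0750). Among its relatives in the NF-kB family and its inhibitors, 9 of 12 were higher, 1 was lower and 2 were not called. Their median log2 fold change was 0.67, and leaving out a library left between 6 and 8 higher. Nfkbie, an inhibitor that holds NF-kB in the cytoplasm, rose by 1.49 (SE 0.17), Relb by 0.999 (SE 0.135) and Nfkb2, its usual partner, by 0.93 (SE 0.14). The member that fell was Rela, by 0.33 (SE 0.11, edgeR adjusted p = 0.0456), a call that was lost on leaving out C7, C8, C9, N136 or N138 in turn, with adjusted p between 0.0835 and 0.126, and with library totals alone (0.140).

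**Figure D3:**
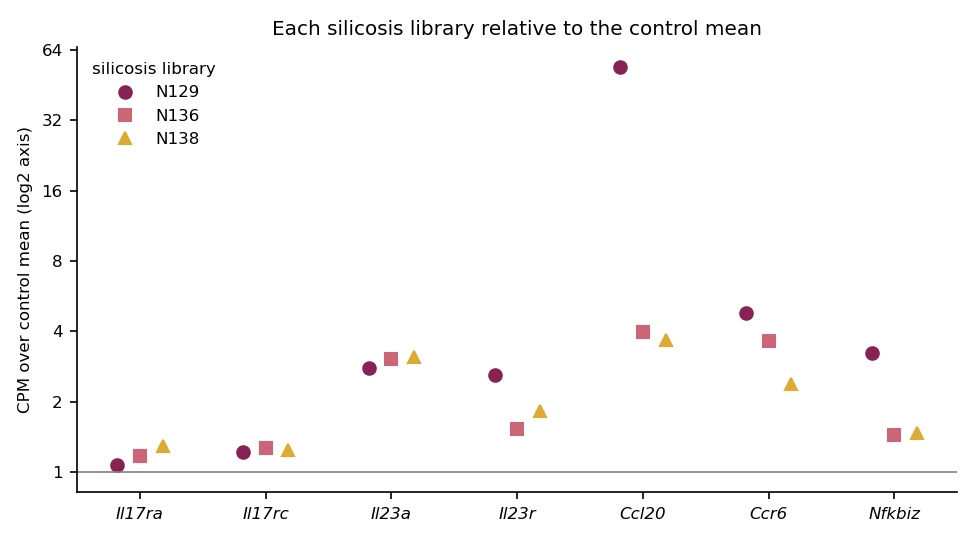
CPM of each silicosis library divided by the control mean, on a log2 axis, for the 7 tested members. N129 is 54.0 times the control mean for Ccl20 and 3.23 times for Nfkbiz, while the 3 libraries lie within a narrow span for Il17rc (1.22 to 1.27) and Il23a (2.78 to 3.12).

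Set in order by CPM per kb of exon, which allows levels of different genes to be compared, control lungs had Il17ra at 9.73, Nfkbiz at 9.02 and Il17rc at 7.95, followed by Ccr6 at 1.83, Il23r at 0.645, Ccl20 at 0.187 and Il23a at 0.0834, with Il17a at 0. Il17ra overlapped Nfkbiz over the control libraries, Nfkbiz overlapped Il17rc, and Ccl20 overlapped Il23a; the other neighbours did not overlap. In silicotic lungs the order was Nfkbiz at 18.4, Il17ra at 11.5, Il17rc at 9.92, Ccr6 at 6.61, Ccl20 at 3.83, Il23r at 1.28, Il17a at 0.288 and Il23a at 0.249. There Ccl20 overlapped both of its neighbours, Ccr6 and Il23r, and Il17a overlapped Il23a. The places of Ccl20 and Il17a rested on N129. In N136 and N138 Ccl20 was at 0.743 and 0.685 CPM per kb, below Il23r at 0.986 and 1.17, and Il17a was at 0.0783 and 0.119, below Il23a at 0.255 and 0.260. Il17a and Il23a were thus at the bottom of both orders and the IL-17 receptor chains near the top. Exon lengths are from GENCODE M21. Of the 50-base windows of the members' longest transcripts, 0.195% were shared with other genes for Il17ra and 0 for each of the other 7, and no exon of another gene overlapped theirs.

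Genes known to be induced by IL-17 in epithelium or fibroblasts were compared as a list. Of 25 tested, 22 rose, 0 fell and 3 did not pass. Cxcl2, Cxcl3, Cxcl5 and Csf3 were under the filter's level in at least 1 control library and over it in all 3 silicosis libraries, so these 4 were tested through the group in which they were high, and the count is a description only. Leaving out a library left between 20 and 22. Most of these genes also respond to other cytokines such as TNF and interleukin-1, and this list was chosen with earlier results of these data known. Saa3, an acute-phase protein, rose by 8.34 (SE 0.28), Cxcl3, a neutrophil chemoattractant, by 7.06 (SE 0.31) and Ccl2, the monocyte chemoattractant, by 5.41 (SE 0.22). Csf2, Duox2 and Muc5b did not pass.

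**Figure D4:**
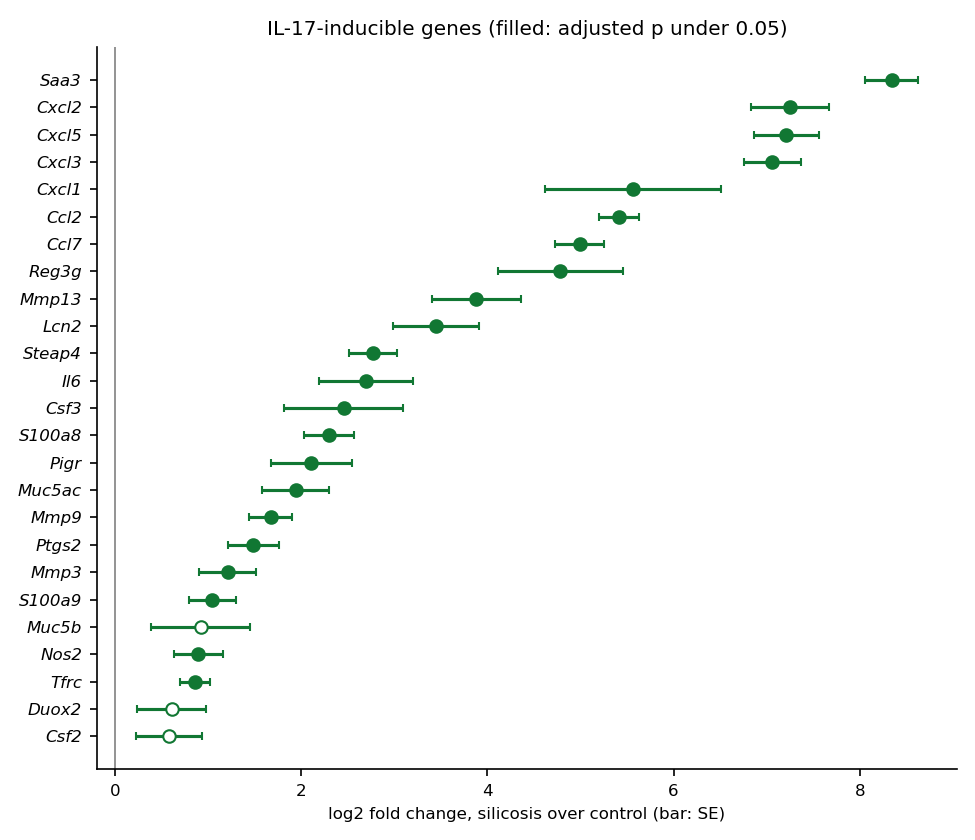
Log2 fold changes, silicosis over control, with SE bars for the 25 tested IL-17-inducible genes in order of their value; filled points passed edgeR's adjusted p of 0.05. Values run from 0.58 for Csf2 to 8.34 for Saa3, and the 3 open points are Csf2, Duox2 and Muc5b.

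Transcripts for the proteins between the IL-17 receptor and these genes were mixed. Among 20 tested genes of receptor signalling there were 8 rises and 2 falls, and 10 missed the threshold, with a median log2 fold change of 0.27. The rises became 5 when any one of C7, C8, C9, N129 or N136 was left out. Traf3ip2, which codes for Act1, the adaptor that binds the IL-17 receptor directly, had 25.9, 26.2 and 39.6 CPM in C7, C8 and C9 and 18.2, 14.7 and 19.7 CPM in N129, N136 and N138. All silicosis libraries were below all controls (log2 fold change -0.80, SE 0.19, edgeR adjusted p = 0.0113). Tab2, which couples TRAF proteins to the kinase TAK1, fell by 0.38 (SE 0.10, edgeR adjusted p = 0.0149), a call that ended without N129 (0.0522) and with library totals alone (0.0601). The 3 rises with the lowest p were in Tnfaip3, which codes for the feedback enzyme A20, by 1.85 (SE 0.30), in Zc3h12a, which codes for the mRNA-degrading Regnase-1, by 1.10 (SE 0.13), and in Ikbke, a kinase that acts with Act1, by 1.06 (SE 0.17).

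Cytokines that promote or hold type 17 cells were also compared. Of 6 tested, 4 rose, 0 fell and 2 did not pass. Il1b rose by 2.24 (SE 0.13), Il1a by 1.81 (SE 0.19) and Il6 by 2.70 (SE 0.50), while Tgfb1 and Tgfb3 had log2 fold changes of -0.16 and -0.36 and did not pass. Il21, a cytokine of helper T cells that can sustain type 17 cells, had 0 counts in each control library and 38, 28 and 6 in N129, N136 and N138. It was at least 8.01-fold higher against the floor of 3 counts in each control library, and at least 5.40-fold without N129.

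Genes of the type 17 lymphocytes themselves went both ways. Among 17 tested there were 5 rises and 3 falls, and 9 missed the threshold, with a median log2 fold change of 0.31; 3 rose without N129, 9 without N138 and 9 with DESeq2. Il1r1, Cxcr6 and Il7r rose by 0.70 (SE 0.10), 0.67 (SE 0.13) and 0.97 (SE 0.19). Sox13 and Zbtb16, regulators of innate-like T cells, fell by 1.05 (SE 0.10) and 1.20 (SE 0.20), and both are expressed by other lung cells too. The genes that rose are not particular to type 17 cells either, since several genes of this list are shared with other cells. Maf fell by 0.39 (SE 0.10), a call that ended without C7 (0.0575), without C8 (0.0626) and with library totals alone (0.0701). Il22 was not analysed here.

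Markers of the cells that could carry these transcripts moved unevenly. Of 10 T cell markers 1 rose, 0 fell and 9 did not pass. Their summed level was 231 CPM in N129, 160 in N136 and 91.9 in N138, against 119 to 166 in the controls, and 0 of the markers was at 0 in either group. Of 10 B cell markers 2 rose, 0 fell and 8 did not pass. Their sum was 653 CPM in N129, 477 in N136 and 295 in N138, against 270 to 488 in the controls. Both sums had the order N129, N136, N138 that Ccr6 had. In N138 both sums lay within or below the control range, and Ccr6 was 2.39 times the control mean. The summed regulatory T cell markers described below were at 61.9 CPM in N138, above all controls. The part of lymphocyte numbers in the Ccr6 values was not tested. Cr2, a complement receptor, was among the B cell rises, and their number was between 0, without C8, and 4, without N138. The T cell rise, Icos, ended without any one of C8, C9, N129 or N136 (edgeR adjusted p between 0.0516 and 0.0599), and 4 T cell markers rose without N138.

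Of 6 regulatory T cell markers 5 rose, Ctla4 by 2.82 (SE 0.45), Tnfrsf4 by 1.77 (SE 0.36) and Ikzf2 by 0.99 (SE 0.19) among them; 3 rose without C7, without C8 or without N129. Some regulatory T cells carry CCR6. Their summed level was between 39.4 and 43.5 CPM in controls and between 61.9 and 117 in silicosis. Among markers of follicle-associated epithelium and M cells, which make CCL20, 4 of 6 rose and 1 fell. The fall, Anxa5, did not pass without any one of C7, C8, C9, N129 or N138. Summed levels were 462 to 513 CPM in controls and 620 to 798 in silicosis. Of these, Anxa5 had 361 to 407 CPM in controls and 285 to 342 in silicosis, and Ccl9 had 11.3 to 14.1 and 140 to 218. Spib did not pass (log2 fold change 0.36, edgeR adjusted p = 0.459). The rises were Ccl9, by 3.70 (SE 0.19), Tnfaip2, by 1.41 (SE 0.13), Tnfrsf11a, by 1.22 (SE 0.15), and Gp2, by 4.16 (SE 0.93). Gp2 had 4, 6 and 90 counts in C7, C8 and C9, and 437, 292 and 990 in N129, N136 and N138. C7 and C8 were under the filter's level of 0.247 CPM, so Gp2 entered the test through the group in which it was high. Ccl9 and Tnfaip2 are also expressed by macrophages. Of 9 tested macrophage markers 7 rose, and the sum of the list was 267 to 313 CPM in controls and 1406 to 2242 in silicosis. Most of the silicosis sums came from Spp1, at 573 to 928 CPM, and Gpnmb, at 330 to 657 CPM. Adgre1 rose by 0.67 (SE 0.16) and Cd68 by 0.96 (SE 0.24), and Marco and Mrc1 did not pass (0.38 and -0.12). For dendritic cells and monocytes 3 of 10 rose and 1 fell, with sums of 379 to 416 and 488 to 596 CPM. The fall, Cd209a, ended without C8 (0.0532), 2 fell without C9 or without N138, and the rise of Ly6c2 ended without C7, C8, N129 or N136, with adjusted p between 0.106 and 0.136. For neutrophils 3 of 8 rose, with sums of 85.1 to 154 and 234 to 361 CPM. The rises were Csf3r and, both also counted in the IL-17-inducible list, S100a8 and S100a9. As each library was left out, the call of Csf3r (edgeR adjusted p = 0.0492) held only without C9. That of S100a9 ended without C9 (0.0564). Cxcr2, Camp, Ngp, Ly6g and Retnlg did not pass, with Ngp at 0.03 and Retnlg at -0.52 on the log2 scale. In RNA of whole lung, more cells of a type and more RNA per cell cannot be told apart, and the part of cell numbers in the results above was not tested.

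**Figure D5:**
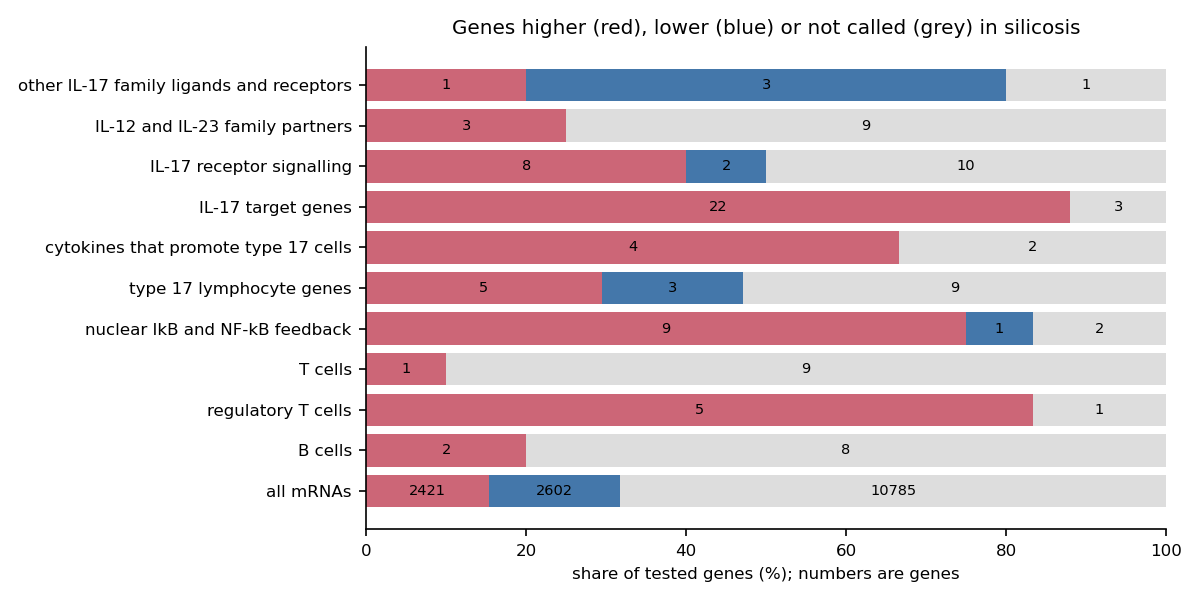
Share of tested genes that were higher (red), lower (blue) or not called (grey) in silicosis by edgeR's adjusted p of 0.05, with the number of genes in each piece, for 10 gene lists around the axis and for all 15808 tested mRNAs. The IL-17-inducible list is red for 22 of 25 genes, 4 of which passed the filter through silicosis libraries, and the bottom bar for 2421 of 15808.

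The called genes closest in pattern to each member were found by the root mean square difference of gene-centred log2 CPM over the 6 libraries, among 4757 called mRNAs. These values describe likeness, and all of them include the difference between groups. For Ccr6 the closest were Il1a (0.195, Pearson r = 0.98 over 6 libraries), Il9r (0.201) and Apol6 (0.206). For Nfkbiz they were Coq8a (0.0910, r = 0.996), Acsm3 (0.179) and Lif (0.197), each highest in N129. For Ccl20 the nearest, Atf3, a stress-induced transcription factor, was still 0.832 away, and it had 96.1 CPM in N129, 35.9 in N136 and 25.0 in N138, against 6.92 to 9.59 in the controls. For Il23r the closest was Rassf10 (0.173), for Il23a Kcna1 (0.236), for Il17rc Coq2 (0.0302) and for Il17ra Casp8 (0.0669).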

How the data were processed

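The 6 libraries were made from whole-lung RNA, and sample titles assign 3 to control and 3 to silicosis. Raw whole-number counts per gene make up the mRNA table as deposited. The authors' deposited comparison table gives a normalised mean signal, log2 fold changes and p-values for the same genes. Per the submitters' processing notes, the tools were DESeq2 1.36.0, featureCounts 2.0.0, Bowtie2, HISAT2 and Trimmomatic 0.39, without their roles, and the build was GRCm39; whether counting used strand was not given in the sources used here. Tables of lncRNAs and circRNAs were not used.

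Counts were fitted with edgeR 4.0.16 in R 4.3.3 (filterByExpr, TMM, quasi-likelihood F test, Benjamini-Hochberg over 15808 of 17973 mRNAs, which held 99.98% of counts). The SE is the log2 fold change divided by the square root of F. Alternatives were DESeq2 size factors, library totals, no filter, DESeq2 1.42.0, limma-voom (limma 3.58.1), a minimum fold of 1.5 and each library left out. Libraries of a group were distinct, with chi-square per degree of freedom between 15.0 and 79.0. In simulated counts for this comparison, over 15808 genes, the test recovered 71% of the 100 genes set to change 2-fold and 93% of the 100 set to change 4-fold, and 7.87% of calls were unchanged genes.

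The members and gene lists were chosen with earlier results of these data known. Of 181 list genes, 176 were in the table and 170 were tested. Named were all members, IL-17 family genes and IL-12 and IL-23 partners, and from each other list the 3 called genes with the lowest p in each direction, or the most expressed gene where none was called. For each tested member the 3 nearest called genes, of mean log2 CPM 0 or more, were found, leaving out Gm, Rik and LOC symbols, and some genes under these rules are not reported here. Outside the rule, Tgfb1, Tgfb3, Gp2, Spib, Il21, Csf2, Duox2 and Muc5b were named after their values were seen. So were the neutrophil markers Cxcr2, Camp, Ngp, Ly6g and Retnlg and the macrophage markers Gpnmb, Adgre1, Cd68, Marco and Mrc1. Intervals and floors cover counting error only.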

Additional observations from a re-analysis of the deposited data

How the results depend on the processing

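A minimum fold of 1.5 left 587 mRNAs higher and 448 lower, and 1 member, 38 list genes higher and 3 lower; its fold changes are the main ones, but the calls of Il17rc (0.32), Ccl20 (4.34) and Nfkbiz (1.03) ended. Leaving out a library gave 2 to 3 members, 1617 to 2580 mRNAs higher and 1867 to 2633 lower, and 59 to 87 list genes higher and 8 to 15 lower, with 8 without C8, against 79 and 14 with all libraries. Over the same 6 settings the log2 fold change was 0.17 to 0.32 for Il17ra, 0.26 to 0.38 for Il17rc, 1.12 to 2.48 for Il23a, 0.72 to 1.28 for Il23r, 1.92 to 4.94 for Ccl20, 1.59 to 2.07 for Ccr6 and 0.54 to 1.22 for Nfkbiz. The call of Il17rc also ended with DESeq2 size factors (0.31) and without the filter (0.31), and that of Ccl20 with limma-voom (3.28). Calls were gained by Il17ra (0.35) and Il23r (1.10) with library totals, by Il23r with DESeq2 (0.98) and by Il23a with limma-voom (1.91). Signs turned only in results that had not passed: Il17rb was 0.053 with library totals and between -0.25 and 0.11 as each library was left out, where Il27 was between -0.23 and 0.57, Ebi3 between -0.49 and 0.15, and Il6st between -0.030 and 0.095. The difference in ratio, silicosis minus control, lay between -0.430 and 0.134 for Il17ra to Il17rc, -7.60 and 2.40 for Il12b to Il23a, and -0.488 and 0.104 for Il12rb1 to Il23r. Fewer samples remain when a library is left out, and the cause of the other changes was not tested. No paired analysis was possible because the libraries of the groups share no replicate numbers. DESeq2 gave neither a p nor an adjusted p for Ccl20. Il17a, at 0 counts in controls, is limited by depth to a bound.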
